A study of Capitella teleta with 12 samples.

Results

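The transcripts of *Capitella teleta* embryos were compared across a single cleavage division, from the 8-cell to the 16-cell stage. *C. teleta* is a marine annelid with spiral cleavage, in which the early cells arise by a fixed pattern of divisions. The comparison used all 4 embryos labelled 8 cell and all 3 labelled 16 cell, which are 7 of the 12 embryos in the series. The 5 embryos labelled 32 cell entered the statistical fit and served to show where each transcript stood after the next division. Each library was RNA from an individual whole embryo, untreated as far as the labels say, and no strain, sex or parentage was given. Libraries were made by CEL-Seq, which primes at the poly(A) tail, adds a barcode for the embryo and a short random tag (unique molecular identifier, UMI) to each molecule, and so counts copies that arise in amplification a single time. Of 32415 gene models, 18530 had a count in the 7 embryos, of which 10140 reached a sum of 10 counts or more and were tested. These 31.3% of the gene models held 99.0% of the counts.

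In animal embryos the first cleavages run on RNA and protein that the mother stored in the egg. Part of the maternal RNA is then degraded and transcription from the genome of the embryo begins, in an order and at a cell number that differ between species. A transcript count in a whole embryo therefore adds stored RNA to newly made RNA, and it adds all cells together. Since CEL-Seq primes at the poly(A) tail, a count stands for RNA with a tail that could be primed. A change in the tail and a change in the amount of RNA were not separated. A transcript present in fewer cells and a transcript present at a lower level in every cell cannot be told apart here. Values are also relative, since they are shares of the counts of an embryo and no spike-in count was used to set an absolute amount per embryo.

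Total counts lay between 286145 and 451149 at the 8-cell stage, between 313356 and 491733 at the 16-cell stage and between 236321 and 408777 at the 32-cell stage. No 2 embryos of the 8- or 16-cell stage were alike within sampling noise. Their chi-square per degree of freedom over gene models was between 2.27 and 3.02. Levels are given in CPM, the share of the counts of an embryo scaled to a sum of 1000000, after TMM scaling, and changes as fitted log2 fold changes of the 16-cell over the 8-cell stage with their standard error. The fit adds a prior count of 2, which pulls the fold changes of rare transcripts toward 0. The standard error is derived from the pulled value, so it leaves out the choice of prior for models at or near 0 counts in a stage. Under the alternatives listed at the end, the log2 fold change of gene model 144340 ran from 2.98 to 7.51. That of gene model 216316 ran from -7.26 to -3.28. A change was called where the p-value of edgeR's quasi-likelihood F test, adjusted by the Benjamini-Hochberg method over all 10140 gene models, was 0.05 or less.

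Between the stages 1213 gene models were called, which is 12.0% of those tested. Transcripts of 627 models were higher at the 16-cell stage (6.18% of those tested) and transcripts of 586 were lower (5.78%). The higher models comprised 51 that were gained, with no count in any 8-cell embryo, and 576 that were raised from a level already counted. The lower models comprised 567 that were lowered and 19 that were lost, with no count in any 16-cell embryo. All 16-cell embryos lay above all 8-cell embryos in 10.8% of the tested models and below them in 11.5%. Of the 1213 called models, 1120 had stages that did not overlap and 93 had stages that overlapped in at least 1 embryo. In the same fit, 173 models (1.71%) were called between the 16- and 32-cell stages and 2146 (21.2%) between the 8- and 32-cell stages. These comparisons share embryos with the one described here. They also cover only models that reached the minimum of 10 counts over the 8- and 16-cell embryos. Models too rare at those stages were left out, such as *Noggin A*, which had 82 counts at the 32-cell stage. The shares of 1.71% and 21.2% therefore miss such models and cannot be set directly beside the 12.0%.

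The count of higher models fell to 428 without 16-cell embryo 2. The count of lower models fell to 383 without 8-cell embryo 1, and to 382, 344 and 366 without 16-cell embryo 1, 2 and 3.

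Most changes were moderate in size. The median fitted log2 fold change was 1.31 for the gained or raised models, a 2.49-fold difference, and -0.98 for the lowered or lost models, a 1.98-fold difference. Over all tested models the median was 0.00. With the gained and lost models set at their lower bounds, explained below, the medians were 1.34 and -0.98. The fitted change was under 2-fold in 176 of the higher and 300 of the lower models. It lay between 2- and 4-fold in 360 higher and 235 lower models, between 4- and 8-fold in 71 and 40, and above 8-fold in 20 and 11. A change of at least 2-fold together with a call was thus found in 451 higher and 286 lower models, which are 7.27% of those tested. These size groups use the fitted change, which the prior count pulls toward 0, so a gained or lost model can have a lower bound above its group. The lost gene model 209987, for example, was fitted at 6.71-fold and has a lower bound of 13.4-fold.

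**Figure D1:**
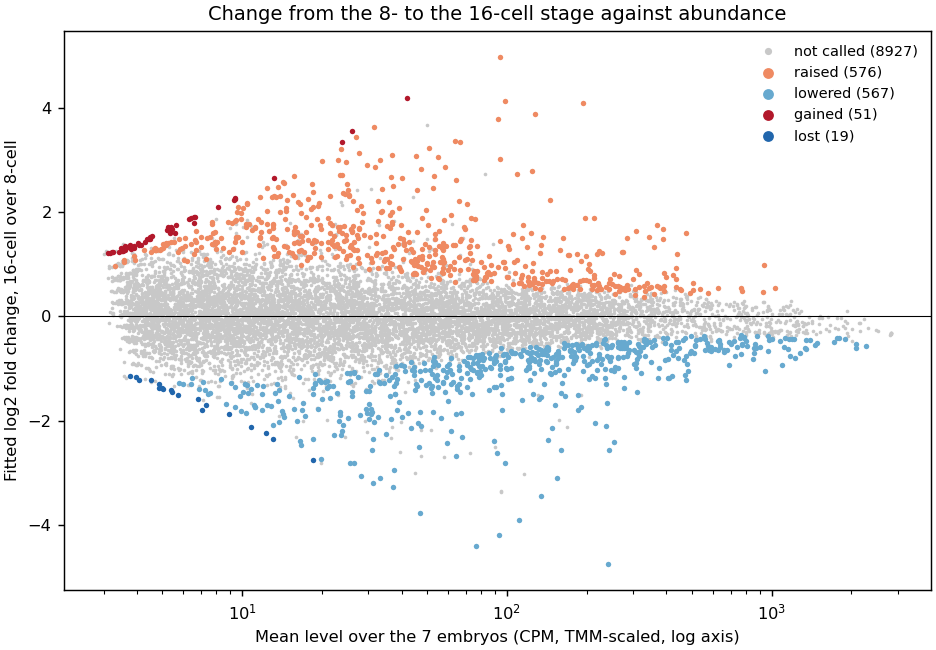
Fitted log2 fold change (16-cell over 8-cell) of the 10140 tested gene models against their mean level over the 7 embryos in CPM on a log axis, coloured by class, with the number in each class in the key. The gained and lost models lie along the edges at the left, and the lowered models reach further to the right than the raised ones.

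The transcripts that fell were more abundant than those that rose. Averaged over the 7 embryos, the median level was 115 CPM for the lowered or lost models, 36.1 CPM for the gained or raised models and 26.3 CPM for all tested models. A mean of at least 100 CPM was reached by 52.4% of the lower models, 25.2% of the higher models and 22.4% of all tested models. When the tested models were ordered by mean level and divided into 10 equal groups, 0.789% of the rarest group was lower at the 16-cell stage and 17.5% of the most abundant group. The share that was higher moved less, from 4.54% in the rarest group to 8.28% in the seventh and 6.51% in the most abundant group. The order rests on the same mean over the 7 embryos, and read depth also enters these shares. The median size of a called log2 fold change was 1.29 in the rarest group and 0.58 in the most abundant, and how far depth shapes the shares was not tested.

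**Figure D2:**
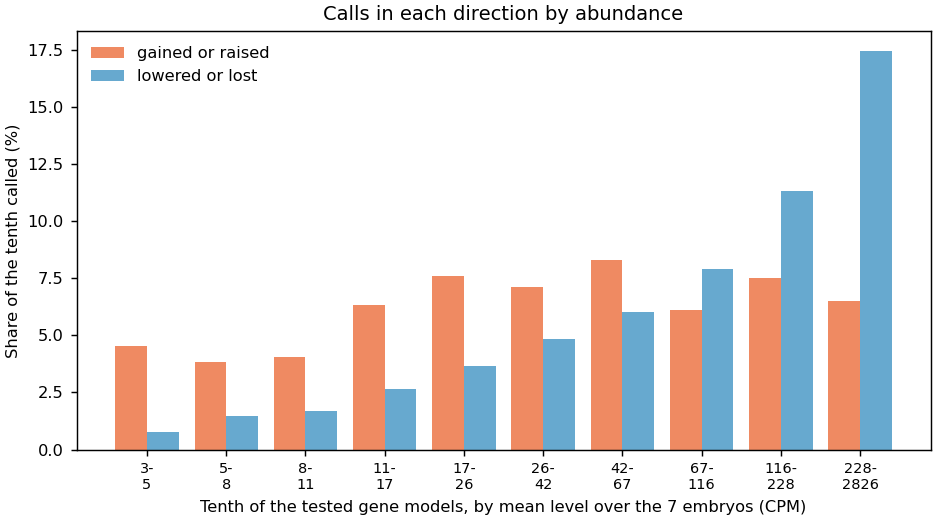
Share of the tested gene models called higher (gained or raised) or lower (lowered or lost) at the 16-cell stage, in 10 groups of 1014 models ordered by mean CPM over the 7 embryos, with the CPM range of each group under its bars. The lower share climbs from 0.789% to 17.5% with abundance, while the higher share stays between 3.85% and 8.28%.

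Gained transcripts were rare. The 51 gained models had between 10 and 127 counts over the 3 16-cell embryos (median 13), and 47 of them were counted in each of the 3. A model with no count at the 8-cell stage passed the minimum of 10 counts through the 16-cell embryos alone. These models therefore had to differ, and their number and p-values are a description. Of 55 tested models with counts at the 16-cell stage only, 4 were not called. A count of 0 leaves room for up to 3 counts over the 4 8-cell embryos (2.18 CPM). The observed 16-cell level over that limit ran from 3.73-fold to 47.4-fold with a median of 4.85-fold. This ratio is called a lower bound on the fold, and "at least" is used in that sense. It allows for counting error at the 8-cell stage only. Counting error at the 16-cell stage and the spread between embryos are left out.

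The most abundant gain was gene model 144340, a model of 1674 bp in the annotation. It had 0 counts in each of the 4 8-cell embryos and 34, 34 and 59 counts in the 3 16-cell embryos, or 98.1 ± 17.6 CPM (SD, n = 3). The level at the 16-cell stage was at least 47.4-fold higher (log2 fold change 4.18 ± 0.35, edgeR adjusted p = 3.57e-07). With 0 counts in every 8-cell embryo and a count in every 16-cell embryo, its stages could not overlap. Embryos of the 32-cell stage held 105 ± 34.8 CPM (SD, n = 5). Its mean at the 16-cell stage was the highest of the 51 gained models.

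The gains described next are those with the highest means among gained models whose stages did not overlap and that had a count in every 16-cell embryo. Gene model 219502 had 12, 16 and 10 counts in the 16-cell embryos, at least 14.2-fold more (edgeR adjusted p = 0.000121). Gene model 179505 had 8, 9 and 11 counts, at least 10.4-fold more (edgeR adjusted p = 0.000697), and its 16269 bp overlap gene model 226358 in the annotation, so that reads of the pair may have been split. The embryos were close to each other for 179505 and spread more widely for the remaining ones. Gene model 108871 had 7, 16 and 4 counts, at least 10.1-fold more (edgeR adjusted p = 0.00478). Gene model 226244 had 5, 13 and 6 counts, at least 8.95-fold more (edgeR adjusted p = 0.00145). In both, 16-cell embryo 2 carried the most. Gene model 198547 had 8, 16 and 2 counts, at least 9.70-fold more (edgeR adjusted p = 0.0253), and its call was lost without 16-cell embryo 2 (adjusted p = 0.112) or without 8-cell embryo 1 (0.0505) or 3 (0.0667), and also with a robust fit (0.176) or DESeq2's Wald test (0.0672).

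The number of gained models was 27, 19 and 21 without 16-cell embryo 1, 2 and 3. It was 25 when all embryos were thinned to the smallest total, 19 with DESeq2's Wald test and 51 with DESeq2 size factors.

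Raised transcripts spanned a wide range of levels. Across the 576 raised models the mean at the 8-cell stage ran from 0.534 to 859 CPM, with a median of 20.1 CPM, and the median at the 16-cell stage was 68.0 CPM. The largest increase was that of gene model 222079, a model of 636 bp. It had 0, 0, 2 and 0 counts in the 8-cell embryos and 70, 71 and 145 counts in the 16-cell embryos. Only 8-cell embryo 3 had any count, and every 16-cell embryo had at least 70. The level at the 16-cell stage was 218 ± 56.4 CPM (SD, n = 3), and the ratio of the counts over the totals was 160.0 (exact 95% interval from counting error 43.9 to 1328). The log2 fold change was 4.97 ± 0.33 (edgeR adjusted p = 2.35e-09).

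Gene models 201014, 226171 and 221642 were counted in every 8-cell embryo and reached a like level at the 16-cell stage. For 201014 the counts were 1, 3, 4 and 2 in the 8-cell embryos and 64, 115 and 106 in the 16-cell embryos, from 6.99 ± 2.55 to 221 ± 39.0 CPM (log2 fold change 4.13 ± 0.22, edgeR adjusted p = 1.45e-10). The lowest 16-cell embryo was far above the highest 8-cell embryo. For 226171 the counts were 4, 3, 6 and 6 against 81, 98 and 193, from 14.0 ± 4.28 to 280.1 ± 76.6 CPM (log2 fold change 3.88 ± 0.25, edgeR adjusted p = 2.35e-09). For 221642 they were 1, 1, 5 and 6 against 71, 85 and 103, from 9.24 ± 7.72 to 203 ± 11.3 CPM (log2 fold change 3.78 ± 0.25, edgeR adjusted p = 2.86e-09). The 8-cell embryos of 221642 differed among themselves more than its 16-cell embryos did in proportion to their means. These gene models were chosen among those whose stages did not overlap.

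In 8-cell embryo 3 a single count was found for each of gene models 166533 and 193598, and none in the other 8-cell embryos. In the 16-cell embryos 166533 had 22, 25 and 49 counts, a ratio of 107 (exact 95% interval from counting error 18.8 to 4287). Its log2 fold change was 3.62 ± 0.36 (edgeR adjusted p = 7.01e-07). For 193598 the 16-cell embryos had 13, 21 and 52 counts, a ratio of 96.3 (exact 95% interval from counting error 16.8 to 3845), with a log2 fold change of 3.44 ± 0.38 (edgeR adjusted p = 3.96e-06). In both, 16-cell embryo 3 was the highest. 8-cell embryo 3 was also the deepest of the 8-cell libraries. These were the 6 most raised models among those with stages that did not overlap and a mean of at least 10 CPM, and their calls held in each of the 22 settings compared, which are 10 changes of the processing and the removal of each of the 12 embryos in turn.

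**Figure D3:**
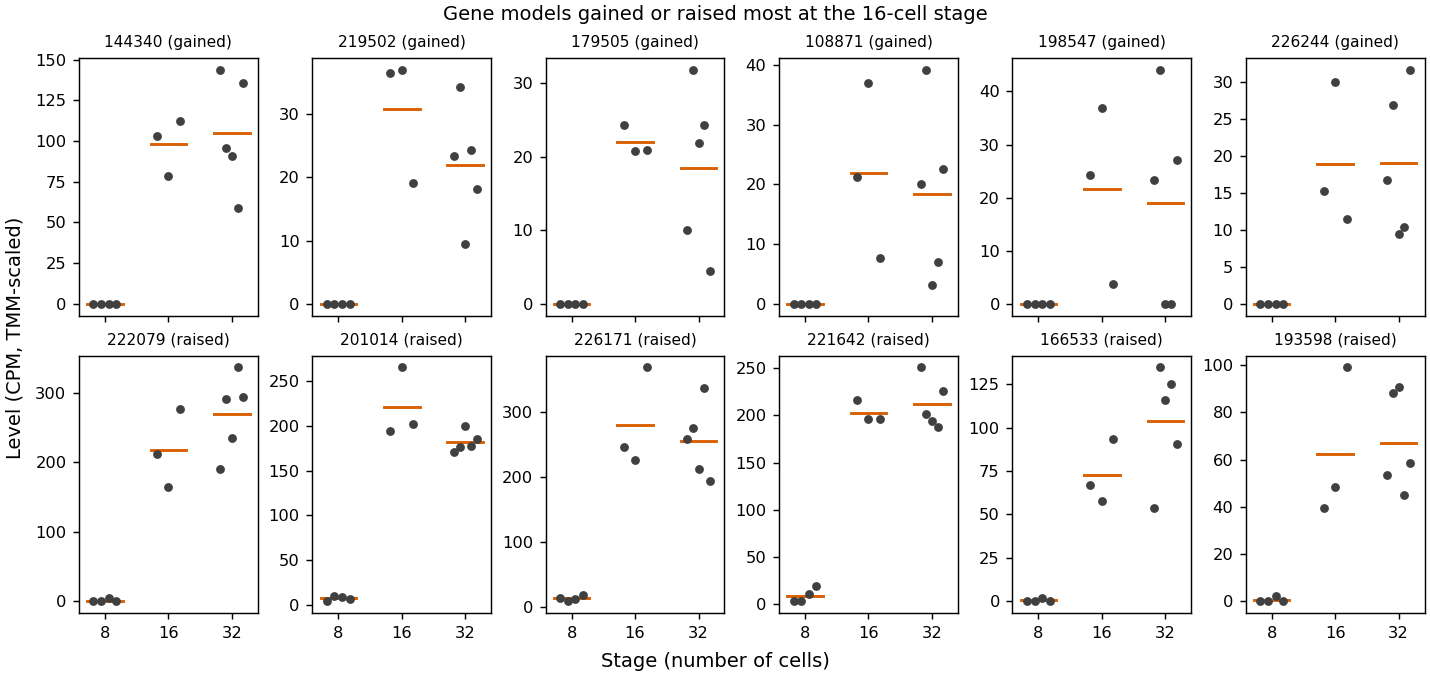
Levels in CPM of the 6 most abundant gained models (top row, with a count in every 16-cell embryo) and the 6 most raised models (bottom row, with a mean of at least 10 CPM), both among models whose stages did not overlap, in each embryo at the 8-, 16- and 32-cell stages, with points for embryos, orange lines for stage means and a separate axis per panel. The 8-cell embryos lie at or near 0 throughout, and all 16- and 32-cell embryos lie above them apart from 2 32-cell embryos at 0 in 198547.

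Lost transcripts were fewer than gained ones in the main fit, with 19 models against 51, and about as rare. With all embryos thinned to the smallest total, 21 models were lost and 25 gained. Without 16-cell embryo 2 the numbers were 19 and 19, so the difference depends on depth and on single embryos. The 19 lost models had between 10 and 45 counts over the 4 8-cell embryos (median 14), and 16 were counted in each of the 4. A count of 0 over the 3 16-cell embryos leaves room for up to 3 counts (2.44 CPM), so the lower bounds on the fold ran from 2.98-fold to 13.4-fold with a median of 4.17-fold. These bounds allow for counting error at the 16-cell stage only and take the 8-cell counts as observed. As with the gains, these models passed the minimum through the 8-cell embryos alone, so their number and p-values are a description. Of the 27 tested models with counts at the 8-cell stage only, 8 were not called.

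Gene model 209987, of 1275 bp, had 6, 18, 14 and 7 counts in the 8-cell embryos, or 32.5 ± 15.9 CPM (SD, n = 4), and none in the 16-cell embryos. It was at least 13.4-fold lower (log2 fold change -2.75 ± 0.42, edgeR adjusted p = 0.000612), and no count was found in the 5 32-cell embryos either. It was chosen with a count in every 8-cell embryo and none at the 16-cell stage, so these stages could not overlap. Gene model 227289 had 7, 7, 15 and 4 counts at the 8-cell stage and was at least 9.83-fold lower at the 16-cell stage (edgeR adjusted p = 0.000519). Gene model 193938 had 10, 9, 6 and 3 counts and was at least 8.34-fold lower (edgeR adjusted p = 0.00154). Gene model 191107 had 4, 7, 11 and 5 counts and was at least 8.04-fold lower (edgeR adjusted p = 0.00104). Each of these 3 had 1 count at the 32-cell stage, in a single embryo. For gene model 104617 the 8-cell counts were 10, 3, 5 and 2, with embryo 1 well above the others, and the drop was at least 5.96-fold (edgeR adjusted p = 0.00797). For gene model 37893, of 686 bp, they were an even 3, 4, 7 and 4, the drop was at least 5.36-fold (edgeR adjusted p = 0.00772), and no count appeared at the 32-cell stage.

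The number of lost models was 11 without 8-cell embryo 1 and 7 without 8-cell embryo 3. It was 2 with DESeq2's Wald test, where a model without an adjusted p counted as not called, and 18 with DESeq2 size factors.

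Lowered transcripts included some that were abundant at the 8-cell stage and had few counts at the 16-cell stage. Gene model 147788, of 1857 bp, had 132, 128, 193 and 116 counts in the 8-cell embryos and 1, 3 and 9 counts in the 16-cell embryos. The 8-cell embryos were close to each other, at 415 ± 41.6 CPM (SD, n = 4), and the 16-cell embryos lay at 9.04 ± 7.29 CPM (SD, n = 3), a 45.9-fold ratio of the means. The log2 fold change was -4.75 ± 0.29 (edgeR adjusted p = 1.65e-09). Gene model 216316 had 42, 52, 57 and 30 counts in the 8-cell embryos and 1, 0 and 0 in the 16-cell embryos. A single count in 16-cell embryo 1 was all that was found, which made a ratio of 162 (exact 95% interval from counting error 28.7 to 6423), and the log2 fold change was -4.41 ± 0.42 (edgeR adjusted p = 5.98e-07).

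Gene model 198861, of 824 bp, fell from 76, 80, 46 and 41 counts to 3 in each 16-cell embryo. In CPM this was 188 ± 85.3 (SD, n = 4) against 7.26 ± 1.73 (SD, n = 3), with a log2 fold change of -3.91 ± 0.36 (edgeR adjusted p = 3.06e-07). 8-cell embryos 1 and 2 were higher than embryos 3 and 4, and all 4 were far above the 16-cell embryos. Gene model 215532 had 20, 22, 42 and 30 counts at the 8-cell stage and 0, 0 and 1 at the 16-cell stage, a ratio of 102 (exact 95% interval from counting error 17.9 to 4058). Its log2 fold change was -3.76 ± 0.40 (edgeR adjusted p = 2.01e-06), and it overlaps gene model 206914 in the annotation, so that reads of the pair may have been split. Gene model 224970 had 78, 83, 89 and 52 counts against 2, 9 and 9, from 224 ± 52.8 to 14.7 ± 7.66 CPM. The log2 fold change of 224970 was -3.44 ± 0.33 (edgeR adjusted p = 5.59e-07). These most lowered models were chosen among those whose stages did not overlap, so their separation is no separate result.

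The remaining of the 6 most lowered models chosen by the same rule, 221947, rested on a single embryo. Its counts were 4, 4, 6 and 184 in the 8-cell embryos and 3, 1 and 0 in the 16-cell embryos. The stages did not overlap, but 8-cell embryo 4 held 93.8% of the summed CPM of the stage. The log2 fold change was -4.18 ± 1.09 (edgeR adjusted p = 0.0146) and fell to -1.05 (adjusted p = 0.170) without that embryo. The call was also lost without 16-cell embryo 2 (adjusted p = 0.0664) or 3 (0.0765), with a robust fit (0.136) and with the replicate block, where the log2 fold change was -2.42 (0.106). At the 32-cell stage the counts were 20, 25, 16, 5 and 22. The calls of the other 5 held in each of the 22 settings.

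**Figure D4:**
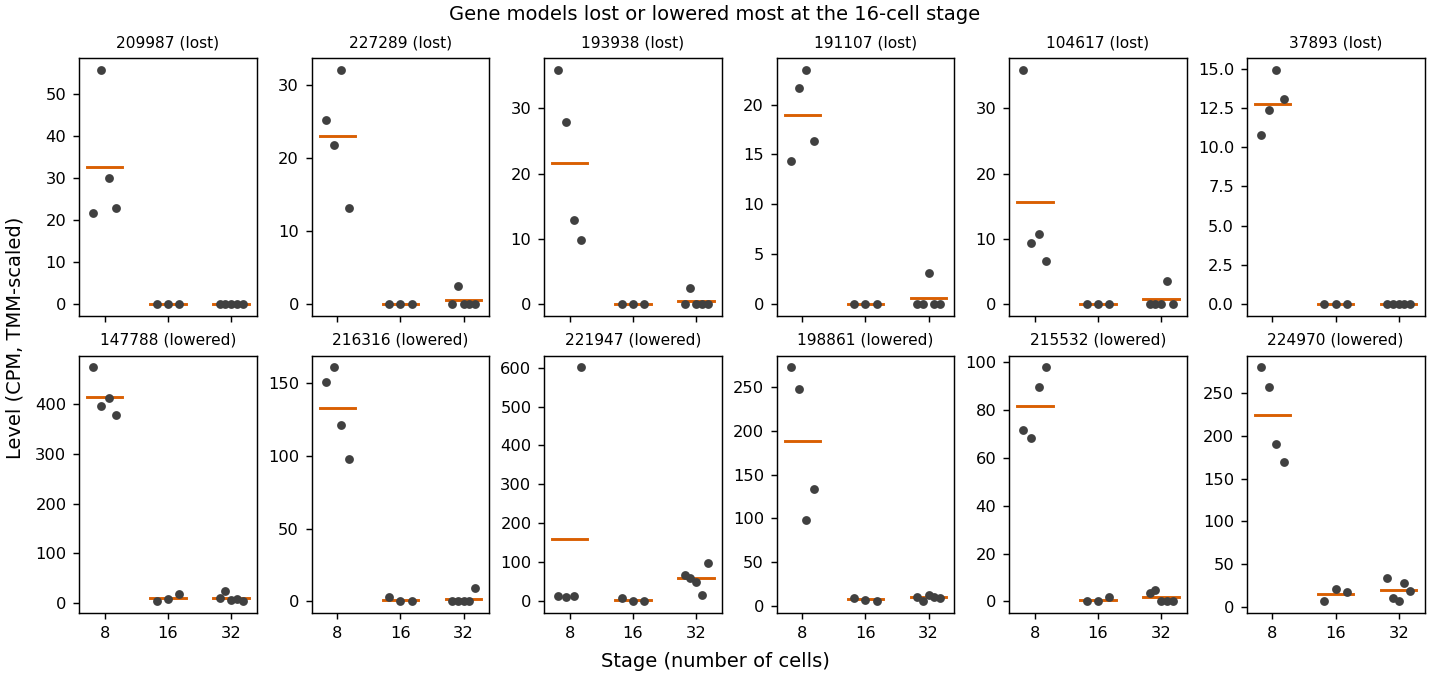
Levels in CPM of the 6 most abundant lost models (top row, with a count in every 8-cell embryo) and the 6 most lowered models (bottom row, with a mean of at least 10 CPM), both among models whose stages did not overlap, in each embryo at the 8-, 16- and 32-cell stages, with points for embryos, orange lines for stage means and a separate axis per panel. The 16-cell embryos lie at or near 0, and in 221947 a single 8-cell embryo at 601 CPM sets the mean.

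At the abundant end, the 3 raised and 3 lowered models with the highest means among those whose stages did not overlap had fitted changes of less than 2-fold. Gene model 151312, of 4015 bp, had 169, 226, 295 and 214 counts in the 8-cell embryos and 417, 596 and 663 in the 16-cell embryos. It rose from 659 ± 47.5 to 1303 ± 63.9 CPM, with no overlap between the stages (log2 fold change 0.98 ± 0.12, edgeR adjusted p = 8.76e-06). Gene model 176161 had 259, 273, 408 and 242 counts against 404, 583 and 621, and rose from 859 ± 58.4 to 1253 ± 84.1 CPM (log2 fold change 0.54 ± 0.12, edgeR adjusted p = 0.00444). Both calls held in all 22 settings. Gene model 220905 had 240, 269, 343 and 237 counts against 334, 547 and 543, and rose from 800.4 ± 58.5 to 1105 ± 138 CPM (log2 fold change 0.47 ± 0.12, edgeR adjusted p = 0.0150). Its call was lost without 16-cell embryo 2 (adjusted p = 0.104).

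Of the lowered models whose stages did not overlap the most abundant was 155752, of 1133 bp, with 779, 803, 875 and 757 counts in the 8-cell embryos and 563, 761 and 787 in the 16-cell embryos. Scaled to the totals, this was 2406 ± 389 against 1656 ± 137 CPM, and the stages did not overlap (log2 fold change -0.54 ± 0.14, edgeR adjusted p = 0.0145). The call was lost without 8-cell embryo 1 (adjusted p = 0.0684) or 4 (0.0601) and without 16-cell embryo 1 (0.0591) or 3 (0.0969). Gene model 222883 had 655, 613, 793 and 651 counts against 514, 676 and 730 (log2 fold change -0.42 ± 0.13, edgeR adjusted p = 0.0370). Gene model 157141 had 616, 696, 751 and 587 counts against 483, 694 and 707 (log2 fold change -0.42 ± 0.13, edgeR adjusted p = 0.0346). The raw counts of the stages cross in these 3 models, and only after scaling to the totals were the 16-cell embryos lower. The calls of 222883 and 157141 held in 7 of the 22 settings each, and were lost without each of the 8- and 16-cell embryos apart from 8-cell embryo 3. No count in the table exceeded 1024, which equals the number of different UMIs of 5 bases. If the values are UMI numbers, the counts of these models lie close enough to that limit to be compressed. The calls of the 3 models held when UMI numbers were converted to molecules by binomial statistics. A count of 512 or more in the 7 embryos occurred in 128 models, and 28 of these were called.

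Some called changes came from a single embryo. In 20 of the higher models and 6 of the lower models, at least 75% of the summed CPM of the higher stage lay in a single embryo. The 20 were spread over 16-cell embryo 1 (7 models), 2 (8 models) and 3 (5 models), and the 6 over 8-cell embryo 1 (2 models), 3 (3 models) and 4 (1 model). Gene model 221343 had 412 counts in 16-cell embryo 1, 7 and 9 in the other 16-cell embryos and 5, 4, 9 and 8 in the 8-cell embryos (edgeR adjusted p = 0.0410). At the 32-cell stage it was again high in a single embryo, with 287 counts in embryo 2 and between 5 and 10 in the others. Gene model 106226 had 635 counts in 8-cell embryo 3 and 10, 18 and 17 in the others, against 25, 25 and 30 at the 16-cell stage. Its call as lowered (edgeR adjusted p = 0.0461) therefore ran against 3 of the 4 8-cell embryos. Gene model 228081 had 202 counts in 16-cell embryo 3 and between 1 and 6 in the other embryos of both stages. The gained models 191270 and 196071 were of this kind too, with 0, 79 and 0 counts and 54, 1 and 0 counts in the 16-cell embryos. These 5 were picked after their values were seen.

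As a share of all counts the called models made up a modest part of the embryo. The 627 higher models took between 3.36% and 3.87% of the counts in the 8-cell embryos and between 7.85% and 8.27% in the 16-cell embryos. The 586 lower models took between 15.7% and 18.1% in the 8-cell embryos and between 10.1% and 10.6% in the 16-cell embryos. These models were chosen on this contrast, so the shares carry no test. In the 32-cell embryos, whose levels did not enter the contrast, the higher models took between 8.75% and 9.41% and the lower models between 9.32% and 10.4%. The gained models alone took 0.0815 ± 0.0167% at the 16-cell stage (SD, n = 3), and the lost models alone took 0.0241 ± 0.00614% at the 8-cell stage (SD, n = 4).

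**Figure D5:**
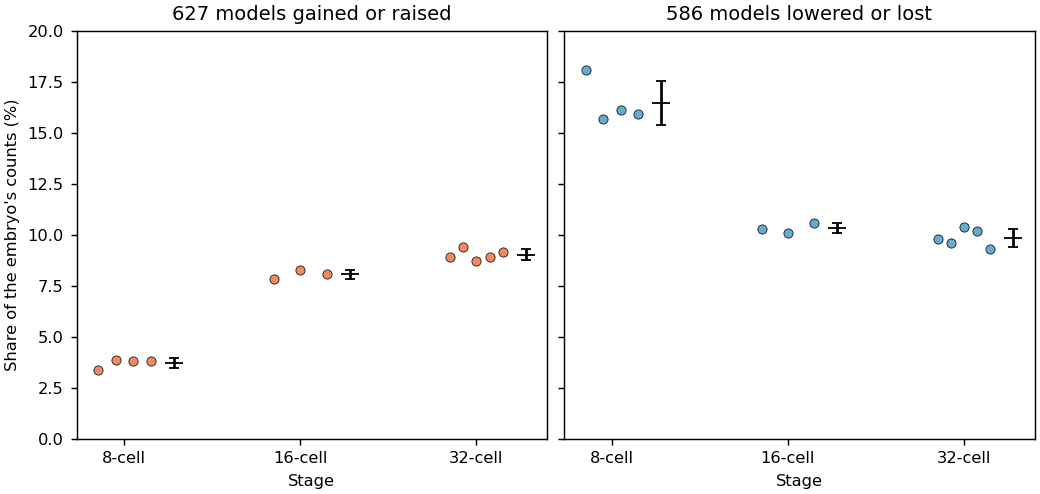
Share of the counts of each embryo that fell in the 627 models gained or raised (left) and in the 586 models lowered or lost (right), at the 8-, 16- and 32-cell stages, with points for embryos and bars for the mean and SD beside them. The shares step between the 8- and 16-cell stages, and the 32-cell embryos lie at 8.75% to 9.41% and at 9.32% to 10.4%.

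Most of the called models were nearer to their 16-cell than to their 8-cell level at the 32-cell stage. This held for 37 of 51 gained, 497 of 576 raised, 547 of 567 lowered and 17 of 19 lost models. The share over all tested models was not computed, and the 32-cell embryos took part in the scaling and the fit, so these numbers are a description. The median levels at the 8-, 16- and 32-cell stages were 20.1, 68.0 and 73.3 CPM in the raised models and 155, 74.3 and 66.1 CPM in the lowered models. Of the lost models, 16 had a count again in at least 1 32-cell embryo and 3 had none, with a median of 1.53 CPM against 9.49 CPM at the 8-cell stage. Among the gained models, 204461 was an exception in the other direction, chosen after its values were seen. It had 4, 1 and 5 counts in the 16-cell embryos and 57, 102, 88, 110 and 51 counts in the 32-cell embryos, a mean of 265.6 CPM.

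Whole-embryo measures were compared with a two-sided exact permutation test over the 35 ways to divide the 7 embryos, which cannot give a p under 0.0286, and were adjusted over the 4 measures. After thinning to 286145 counts each, 11270.5 ± 236 gene models had a count in the 8-cell embryos (SD, n = 4, exact p = 0.0286) and 12101 ± 217 in the 16-cell embryos (SD, n = 3). The 8-cell embryos ranged from 11054 to 11565 and the 16-cell embryos from 11920 to 12341, so every 16-cell embryo showed more gene models than every 8-cell embryo, but the adjusted p was 0.0571. The distance between embryos of different stages over that between embryos of a stage was 1.20 (exact p = 0.0286, adjusted p = 0.0571). The 100 most counted models of each embryo held 17.1 ± 1.76% of the counts in 8-cell embryos and 15.3 ± 1.00% in 16-cell embryos (exact permutation p = 0.200, adjusted p = 0.267). The stages overlapped in that share and in total counts (exact permutation p = 0.314). Models counted at a single stage were mostly seen in few counts. Of 2705 models counted at the 16-cell stage only, 2650 had fewer than 10 counts, as had 1951 of the 1978 counted at the 8-cell stage only.

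The annotated span of a gene model, introns included, was known for 10066 of the tested models. Its median was 2324 bp in the gained, 2919 bp in the raised, 2501 bp in the lowered and 1657 bp in the lost models, against 2970 bp over all tested. In 5 equal groups by span, the share that was lower at the 16-cell stage went from 7.40% in the shortest to 3.03% in the longest, and the share that was higher was 7.65% in the shortest and 7.25% in the longest. The shortest group was also the least abundant, with a median of 17.5 CPM against 29.2 CPM in the longest.

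The gene models with names in the sources used here belong mainly to the TGF-β superfamily, the subject of the study, and the roles given here are those known from vertebrates and flies. Its secreted ligands bind paired type I and type II receptors, which phosphorylate Smad proteins that enter the nucleus and regulate transcription. Ligands of the Activin/Nodal branch act through Smad2/3, BMP ligands act through Smad1/5/8, and Smad4 serves both. Of 33 listed components 32 were in the table and 16 were tested, of which 2 were raised and 1 was lowered (18.8%, against the 12.0% of all tested models). The median log2 fold change of the 16 was 0.17, against 0.00 over all tested models.

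Among the ligands, 5 of 13 in the table were tested and 1 was raised. *activin/inhibin/myostatin-like 4* (gene model 165201), named for its likeness to Activin-type ligands, had 33, 20, 46 and 33 counts in the 8-cell embryos and 43, 81 and 77 in the 16-cell embryos. The stages did not overlap after scaling (96.6 ± 24.6 against 155 ± 29.0 CPM, log2 fold change 0.66 ± 0.21, edgeR adjusted p = 0.0399). This call was lost without 8-cell embryo 2 (adjusted p = 0.0806) or 3 (0.0608) and without 16-cell embryo 2 (0.180) or 3 (0.0717), and also with the 7 embryos alone (0.0536), the replicate block (0.0730), DESeq2's Wald test (0.0521) and thinning (0.132), so that it held in 14 of the 22 settings. *BMP2/4*, a BMP ligand, had 22, 40, 48 and 33 counts against 47, 41 and 75 (log2 fold change 0.28 ± 0.19, edgeR adjusted p = 0.405). *BMP3* was uneven between embryos, with 4, 5, 44 and 7 counts against 18, 14 and 5 (edgeR adjusted p = 0.809). *BMP5/8* (log2 fold change -0.10 ± 0.30) and *activin/inhibin/myostatin-like 5* (log2 fold change 0.17 ± 0.51) were not called either. *BMP10* with 1, 1 and 1 counts, *Maverick* with 4, 1 and 0 and *activin/inhibin/myostatin-like 1* with 1, 0 and 0 were counted at the 16-cell stage only, too few counts to test. A BMP-like ligand (gene model 29529), also too rare to test, went the other way, with 3, 0, 2 and 1 counts against 1, 0 and 0.

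Among the receptors, *Activin Receptor 2*, a type II receptor (gene model 94926), was the 1 of 4 tested that was raised. Its counts were 43, 66, 63 and 34 at the 8-cell stage and 85, 123 and 107 at the 16-cell stage. The highest 8-cell embryo (204.4 CPM) lay just above the lowest 16-cell embryo (203.9 CPM), and the log2 fold change was 0.70 ± 0.19 (edgeR adjusted p = 0.0166). The call was lost without 8-cell embryo 3 (adjusted p = 0.0515) or 16-cell embryo 2 (0.0843). The type I receptors were not called, with log2 fold changes of 0.22 ± 0.46 for *Activin Receptor 1*, -0.49 ± 0.38 for *BMP Receptor 1* and -0.46 ± 0.28 for *TGF-β Receptor 1*. *BMP Receptor 2* had a single count, in 16-cell embryo 3.

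None of the 4 Smads was called. Log2 fold changes were 0.38 ± 0.31 for *Smad2/3*, 0.82 ± 0.41 for *Smad1/5/8*, 0.17 ± 0.39 for *Smad4* and -0.49 ± 0.33 for the inhibitory *Smad6/7*. *Smad1/5/8* had 0, 1, 3 and 3 counts in the 8-cell embryos and 3, 9 and 5 in the 16-cell embryos (edgeR adjusted p = 0.221). *Smad6/7* was lower in every 16-cell embryo than in every 8-cell embryo after scaling, at 5, 6, 7 and 10 counts against 4, 6 and 7 (edgeR adjusted p = 0.395).

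Among the modulators 3 of 10 were tested and *TSG*, which encodes the extracellular BMP-binding protein Twisted gastrulation, was lowered. Its counts were 53, 87, 149 and 76 in the 8-cell embryos and 45, 62 and 66 in the 16-cell embryos. In CPM it fell from 257 ± 52.9 (SD, n = 4) to 135 ± 8.79 (SD, n = 3), every 16-cell embryo was below every 8-cell embryo, and the 32-cell embryos were at 134 ± 20.4 (SD, n = 5). The log2 fold change was -0.91 ± 0.18 (edgeR adjusted p = 0.00150), and the call held in all 22 settings. *SMURF*, a ubiquitin ligase acting on Smads and receptors (log2 fold change -0.27 ± 0.21), and *NOMO* (0.66 ± 0.39) were not called. *Noggin A*, which encodes a secreted BMP antagonist, had no count at the 8-cell stage and 2, 2 and 0 counts at the 16-cell stage, and *Tolloid*, which encodes a protease that cleaves a BMP antagonist, had 1, 1 and 1. Also too rare to test were *Follistatin* (1, 0, 1 and 0 counts against 1, 3 and 0), *BAMBI* (2, 1, 1 and 0 against 0, 0 and 3) and *Chordin-like* (0, 1, 0 and 0 against 0, 1 and 0).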

How the data were processed

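CEL-Seq libraries of 12 individual embryos shared a sequencing lane. Bowtie2 (its version was not given in the sources used here) and HTSeq are named in the authors' processing notes, and the deposited values are counts per gene model, whole numbers that were not normalized. By the study's methods UMI numbers were turned into transcript counts, but no deposited value exceeds 1024, so the values were used as UMI numbers. Which of these they are was not settled, and conversion was run as an alternative. The deposited normalized table and the authors' table of a DESeq2 likelihood ratio test (fold changes and p-values) were not used. Stages came from the labels. There were 0 columns of other samples and 0 rows naming no gene. Strandedness of the counting was not given in the sources used here. A level set beside that of another gene assumes that each model covers its 3′ end, which was not tested.

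Gene models with 10 or more counts over the 7 compared embryos were fitted over all 12 embryos in R 4.3.3 with edgeR 4.0.16 (quasi-likelihood F test, TMM scaling, no covariate, Benjamini-Hochberg threshold 0.05). The standard error is the size of the log2 fold change over the square root of F. DESeq2 1.42.0 served as an alternative, and single values were tested in Python 3.11.15 with scipy 1.17.1. Totals ranged from 236321 to 491733 counts, and limits for counts of 0 (3 counts) and 95% intervals cover counting error only. Replicates are separate embryos, of parents not stated.

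Models named by rule had stages that did not overlap. They were the 6 most abundant gained and lost with a count in every embryo of the stage concerned, and the 6 most raised and 6 most lowered with a mean of at least 10 CPM. The 3 most abundant raised and lowered were added. The TGF-β components, and the models picked after their values were seen, were named whether or not their stages overlapped. Gene models, lists and rules were chosen with earlier results of these data known. Locus tags of the same assembly (Capca1) matched 31968 gene models (98.6%), gave positions without scaffold names and 13 gene symbols, of which 2 were on tested models and 0 on called ones. Product names and protein sequences were not used here, so lists built on them were not run.

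Alternatives were DESeq2 size factors, no minimum, a minimum over 12 embryos, filterByExpr, the 7 embryos alone, a replicate block, a robust fit, DESeq2's Wald test, conversion of UMI numbers by binomial statistics, thinning, thresholds of 0.01 and 0.1, a 2-fold minimum, prior counts of 0.5 and 5, and each embryo left out in turn. Embryos with the same replicate number at the 8- and 16-cell stages did not deviate together (correlations of -0.0104, -0.0116 and -0.00689 over gene models).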

Additional observations from a re-analysis of the deposited data

Results flagged for a closer look

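Dixon's criterion for a single value far from the rest of its stage was applied to the named gene models, in 84 groups of 4 or 5 embryos, and picked out 13. Chance picks about 1 in 20 groups of continuous values, but in 8 of the 13 every other embryo was at 0, where any single count is picked out, so the number is not set against that share. At the 8-cell stage gene model 221947 stood at 600.6 CPM in embryo 4 (184 counts, with 4, 4 and 6 in the others), *BMP3* at 93.9 CPM in embryo 3 (44 counts, with 4, 5 and 7 in the others) and gene model 104617 at 35.9 CPM in embryo 1 (10 counts, with 3, 5 and 2 in the others). 8-cell embryo 3 was also the single embryo with a count for gene models 222079 (4.27 CPM, 2 counts), 166533 (2.13 CPM, 1 count) and 193598 (2.13 CPM, 1 count).

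At the 32-cell stage the values rested on 1 to 10 counts. Gene model 147788 stood at 24.5 CPM in embryo 2 (10 counts), *activin/inhibin/myostatin-like 5* at 13.6 CPM in embryo 5 (3 counts) and gene model 216316 at 9.04 CPM in embryo 5 (2 counts). A single count in a single embryo was found for gene models 227289 (2.45 CPM) and 193938 (2.45 CPM) in embryo 2, 191107 (3.13 CPM) in embryo 3 and 104617 (3.47 CPM) in embryo 4.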

How the results depend on the processing

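Counts of called models under the alternatives that moved at least 1 of them by more than 1.5 times were as follows. With filterByExpr, 1 gained and 0 lost models were called, since that filter left 5032 models to test. DESeq2's Wald test called 468 higher and 392 lower models, with 19 gained and 2 lost. Thinning to the smallest total gave 387 lower, 25 gained and 21 lost models. A threshold of 0.01 gave 292 higher, 271 lower, 16 gained and 7 lost models, and a 2-fold minimum gave 286 lower models. Leaving out each embryo gave 428 to 656 higher, 344 to 568 lower, 19 to 57 gained and 7 to 22 lost models. With the replicate block 546 higher, 504 lower, 43 gained and 12 lost models were called. In every leave-one-out, 293 of the 627 higher and 246 of the 586 lower models kept their call, and 207 and 215 did so in all 22 settings. A model that a setting did not test counted as not kept. Since filterByExpr called 1 gained and 0 lost models, no more could hold in all 22, and 1 and 0 did. Among the named gained and lost models, 219502, 179505, 108871, 226244, 209987 and 227289 held in 21 settings. Gene models 104617, 191107, 193938 and 37893 held in 20, and 198547 in 16. Of 1076 values of 46 named or listed models under the alternatives, 1015 kept direction and call, 55 kept direction without the call and 6 changed direction. These 6 were uncalled TGF-β components, with log2 fold changes of 0.08 and 0.10 for *BMP5/8* (without 8-cell embryo 3 and without 16-cell embryo 2, leave-one-out range -0.38 to 0.10), 0.67 and 0.11 for *BMP3* (without 8-cell embryo 3 and without 16-cell embryo 3, range -0.76 to 0.67), -0.17 for *Activin Receptor 1* (without 16-cell embryo 3, range -0.17 to 0.68) and -0.024 for *activin/inhibin/myostatin-like 5* (thinned). The cause was not tested. The median log2 fold change of all tested models lay between -0.01 and 0.06. Depth limits the rare models most, since a model with no count at a stage could hold up to 3.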

Other observations

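Called models that lie next to each other in the annotation, within 5000 bp, were counted after the data had been seen. Scaffolds are not named there, so adjacency was read from the order of the locus tags and positions. Of 3453 such pairs of tested models, 18 held 2 higher models, 6 held 2 lower models and 26 held 1 of each. The neighbours of a gained or raised model were themselves gained or raised in 11.6% of 310 cases, against 4.49% of all members of these pairs. Neighbours of a lowered or lost model were themselves lowered or lost in 2.76% of 434 cases, against 6.28%. These differences were not tested.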
